A study of Mus musculus with 2 samples.

Results

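Transcripts of the late neutrophil programme were followed through granulocyte development in mouse bone marrow, namely S100a8, S100a9, Retnlg, Mmp9, Wfdc17, Stfa1, Stfa2, Stfa2l1 and BC100530. They are 9 of the 31053 genes in the count matrices, matched by symbol, and all 9 were found. They were chosen as late neutrophil transcripts, several of them because their UMI counts were known to be low in the library labelled Itgb3(-/-), so the differences between the libraries given here are descriptions and no test stands behind them. C57BL/6 bone marrow was profiled with 10x Genomics 3′ chemistry in 2 libraries, 1 per genotype. The null-labelled library came from Apoe(-/-), Itgb3(-/-) mice and the control-labelled library from Apoe(-/-), Itgb3(+/+) mice. Both groups were 6 months old, carried the disease label atherosclerosis and lacked Apoe by label, so there is no group with intact Apoe. The number of animals behind a library is not stated in the labels. With 1 library per genotype there is no replicate, and every 95% interval covers counting error within a library only.

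Neutrophils mature in the marrow through stages that each make their own set of granule proteins. Promyelocytes make the primary granule proteases, dividing pre-neutrophils and non-dividing immature neutrophils make secondary granule proteins such as Ngp, Camp and Ltf, and mature neutrophils lose these transcripts and gain receptors such as Cxcr2. S100a8 and S100a9 encode the subunits of calprotectin, a calcium- and zinc-binding complex that is among the most abundant proteins of the neutrophil cytosol. The stefins are small cytosolic inhibitors of cysteine cathepsins, and several of their mouse genes are expressed in neutrophils.

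The members lie at few places in the genome (mm10, GENCODE vM21). S100a8 (ENSMUSG00000056054, chr3:90668978-90670035, plus strand) and S100a9 (ENSMUSG00000056071, chr3:90692632-90695721, minus strand) lie within 26.7 kb of each other. The 4 stefin genes lie within 251.6 kb of chromosome 16, in the order Stfa2l1 (ENSMUSG00000059657, chr16:36156811-36161953, plus), Stfa1 (ENSMUSG00000071562, chr16:36276951-36285373, plus), BC100530 (ENSMUSG00000071561, chr16:36359382-36367748, minus) and Stfa2 (ENSMUSG00000022902, chr16:36403992-36408457, minus). Retnlg lies elsewhere on the same chromosome (ENSMUSG00000022651, chr16:48872621-48874496, plus). Mmp9 (ENSMUSG00000017737, chr2:164940780-164955850, plus) and Wfdc17 (ENSMUSG00000069792, chr11:83703991-83706268, plus) lie on other chromosomes. All are annotated as protein-coding, with 3 exons in the S100, stefin and Wfdc17 transcripts used here, 4 in Retnlg and 13 in Mmp9.

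The stefin genes are near copies of each other, which bears on how 3′ reads can be assigned to them. Over the last 300 transcript bases, Stfa1 and BC100530 were 98.7% identical, and their whole transcripts shared a run of 128 bases. Stfa2 and Stfa2l1 were 97.6% identical over the last 300 bases, and their whole transcripts shared a run of 97 bases. The other pairs among the 4 were 77.3% to 78.2% identical over the last 300 bases, with shared runs of at most 23 bases over whole transcripts. Where in the transcripts the runs lie was not recorded. The split of UMIs within Stfa1 and BC100530, and within Stfa2 and Stfa2l1, is therefore uncertain, while the split between these pairs is less so. The same pairing shows in the promoters. The 100 bases before each RefSeq start (GRCm38.p6) are printed because the 4 genes differ between the libraries by stage and share part of this stretch. Relative to the RefSeq start, the GENCODE start stood at -197 bases in Stfa1, -178 in BC100530 and -94 in Stfa2. The printed bases of these genes therefore lie wholly or mostly within the GENCODE spans given above. For Stfa2l1 the starts were the same. Capitals mark the longest run that all 4 hold in these 100 bases, 12 bases long.
Stfa1 (chr16:36277048-36277147, plus): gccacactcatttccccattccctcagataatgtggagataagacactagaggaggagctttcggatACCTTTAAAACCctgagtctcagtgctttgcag
BC100530 (listed there as Cstdc5, chr16:36367571-36367670, minus): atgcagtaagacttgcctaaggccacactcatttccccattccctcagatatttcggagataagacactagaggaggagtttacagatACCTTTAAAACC
Stfa2 (chr16:36408364-36408463, minus): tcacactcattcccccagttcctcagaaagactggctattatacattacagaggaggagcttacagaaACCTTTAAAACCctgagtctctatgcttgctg
Stfa2l1 (chr16:36156711-36156810, plus): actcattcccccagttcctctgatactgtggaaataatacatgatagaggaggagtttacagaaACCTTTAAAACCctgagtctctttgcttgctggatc
The block ACCTTTAAAACC, searched on both strands, stood in 11 of 32851 RefSeq promoter windows of 300 bases (0.0335%), and 9 of the 11 were in the stefin locus. Over 250 bases before the start, identity was 96.1% between Stfa1 and BC100530, 92.3% between Stfa2 and Stfa2l1, and lowest between Stfa1 and Stfa2 at 82.6%. TATAAA, the letters of a common core promoter element, stood in 13.6% of all windows, wherever in the 300 bases it lay. It was found in the windows of S100a8, S100a9 and Wfdc17 and in none of the 4 stefin windows. In S100a8 it ended 24 bases before the RefSeq start. In S100a9 and Wfdc17 it was not in the 100 bases before the RefSeq start, so no core element is read there. The RefSeq table matched 8 of the 9 members. Mmp9 has no entry there.

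After filtering, 2903 cells with 33499181 UMIs were kept in the null-labelled library and 8595 cells with 59016542 UMIs in the control-labelled one. The median was 9311 UMIs per cell in null-labelled and 4808 in control-labelled cells, and 11 barcodes occurred in both matrices. Itgb3 was detected in both, at 7.43 CPM (counts per 1000000 UMIs) from 249 UMIs in the null-labelled library, against 23.6 CPM from 1391 UMIs in the control-labelled one. The labels do not say which part of the gene was deleted, so 3′ counts do not check the label. Granulocytes were 697 null-labelled cells (24.0% of those kept) and 3147 control-labelled cells (36.6%). Each library was clustered by itself with the 9 members left out, and granulocytes were staged cell by cell from the share of UMIs in secondary granule, cell cycle and primary granule genes, also without the members. The thresholds were set after the data were seen. Near the secondary granule threshold, within 20% of it, lay 49 null-labelled and 107 control-labelled cells.

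The stages differed in size and in depth between the libraries. The granulocyte-monocyte progenitor- and promyelocyte-like stage, called progenitors here, held 61 null-labelled and 372 control-labelled cells. Pre-neutrophil-like cells numbered 193 in the null-labelled and 505 in the control-labelled library, and immature neutrophil-like cells 350 and 931 in the same order. Mature neutrophil-like cells numbered 90, or 12.97% of staged granulocytes, in the null-labelled library, against 1267 (41.2%) in the control-labelled library. Median depth in mature cells was 5075 UMIs in the null-labelled and 2505 in the control-labelled library. Hemoglobin transcripts, which mark red cells and their free RNA, were taken as a share of UMIs of genes other than the members. They made up 7.498% in null-labelled and 2.16% in control-labelled mature cells, and 0.418% and 1.83% in pre-neutrophils of the same libraries.

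Markers of maturity differed between the libraries within the mature stage. Of the UMIs of genes other than the members, Ngp, Camp and Ltf still made up 2.69% in null-labelled mature cells, against 0.948% in control-labelled ones. The members themselves held 20.74% of all UMIs in null-labelled and 37.94% in control-labelled mature cells. Of the 14 mature neutrophil markers, all 14 passed the level minimum there, 3 were 2-fold or more lower and 3 were 2-fold or more higher in the null-labelled library, with a median log2 ratio of 0.39, and they summed to 11076 CPM in null-labelled and 11773 CPM in control-labelled cells. Ccl6, a chemokine gene of mature neutrophils, had 70.2 CPM in null-labelled and 2433 CPM in control-labelled mature cells. Il1r2, the decoy receptor of interleukin 1, had 1750 CPM in null-labelled and 182.7 CPM in control-labelled mature cells. Since the libraries were clustered apart, the mature cells came from different clusters. In the 2 largest null-labelled clusters Cxcr2 stood at 360.5 and 271.3 CPM, and in the 5 largest control-labelled clusters it lay between 673.8 and 2245 CPM. Among mature cells with a Cxcr2 or Csf3r UMI, 5 members were again 2-fold or more lower and 1 higher. The same counts held among mature cells with under 1% hemoglobin UMIs. Both alternatives were chosen after the data were seen, and no share over all genes is given for them. The first kept 76 null-labelled and 1251 control-labelled mature cells. It asked for 1 UMI only, at unlike depth, and cells were not matched on Cxcr2 level. Neither count is therefore a check on maturity. The part of depth in the member ratios was not tested beyond thinning.

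In the control-labelled library most members climbed to the last stage. Of these, 7 (Retnlg, Mmp9, Wfdc17 and the 4 stefins) were highest in mature cells, and S100a8 and S100a9 were highest in immature cells. In the null-labelled library 4 members were highest in mature cells, namely Retnlg, Mmp9, Wfdc17 and Stfa2l1. S100a8 and S100a9 again peaked in immature cells, Stfa1 was highest in progenitors, and Stfa2 and BC100530 were highest in pre-neutrophils. For Stfa2, Stfa2l1 and BC100530 of the null-labelled library the intervals of the 2 highest stages overlapped, so their order is not resolved. The progenitor peak of Stfa1 rests on 1 cell. Without the cell with most of its UMIs in each stage, null-labelled Stfa1 was highest in pre-neutrophils, at 74.1 CPM. It then stood at 23.5 CPM in progenitors and 31.6 CPM in immature cells. The plot of member levels by stage shows both courses.

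**Figure D1:**
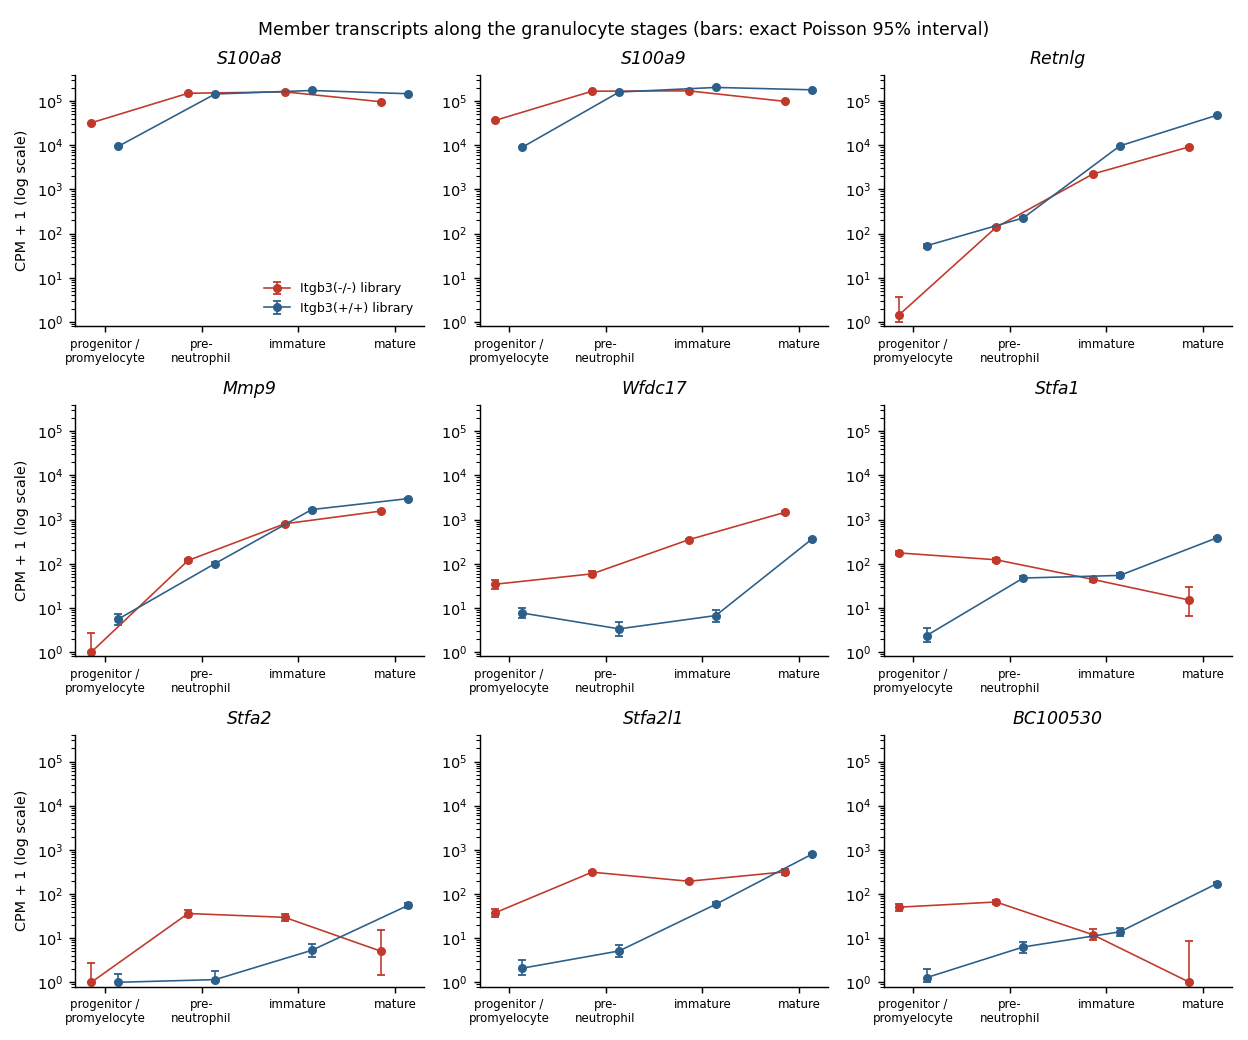
Level of each member, as CPM + 1 on a log axis, in 4 granulocyte stages of the Itgb3(-/-) library (red, left) and the Itgb3(+/+) library (blue, right), with exact Poisson 95% intervals. Retnlg and Mmp9 climb with maturation in both libraries, while Stfa1 and BC100530 end at 14.03 and 0 CPM in null-labelled mature cells, against 382.8 and 169.1 CPM in control-labelled ones.

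S100a8 and S100a9 were abundant from the pre-neutrophil onward and were among the most frequent transcripts of these cells. They made up 6.90% of UMIs in null-labelled progenitors, 31.8% in pre-neutrophils, 33.3% in immature and 19.5% in mature cells. In the control-labelled library the shares were 1.86%, 30.6%, 37.8% and 32.7% in the same order of stages. The libraries were thus near each other in the middle stages, with the null-labelled library above the control at the start and below it at the end.

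S100a8 had 32282, 150511, 162135 and 96496 CPM in null-labelled progenitors, pre-neutrophils, immature and mature cells. In the control-labelled library it had 9490, 144937, 174098 and 146856 CPM in the same stages. S100a8 was 3.40-fold higher (95% interval 3.37 to 3.44) in null-labelled progenitors and 1.52-fold lower (1.51 to 1.54) in null-labelled mature cells. Between these stages it differed by 1.04-fold upward in pre-neutrophils and 1.07-fold downward in immature cells.

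S100a9 had 36675, 167915, 170752 and 98311 CPM in the same 4 stages of the null-labelled library, against 9073, 160635, 204153 and 180122 CPM in the control-labelled library. Its ratio followed that of its partner, 4.04-fold higher (4.001 to 4.084) in null-labelled progenitors and 1.83-fold lower (1.82 to 1.85) in null-labelled mature cells. Single cells overlapped between the libraries. The 10th, 50th and 90th percentiles of S100a9 over mature cells were 26104, 89283 and 151872 CPM in the null-labelled and 94393, 180288 and 221239 CPM in the control-labelled library.

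The higher level in null-labelled progenitors came mostly from 1 of 2 clusters. A cluster of 26 null-labelled cells held S100a8 at 82407 CPM with Camp at 4634 CPM, and the other, of 35 cells, held it at 10321 CPM with Camp at 29.4 CPM. The control-labelled progenitors fell mainly into a cluster of 155 cells with S100a8 at 25963 CPM and Camp at 5456 CPM, and a cluster of 214 cells with S100a8 at 624.6 CPM and with F13a1, a monocyte-lineage gene, at 444.3 CPM. F13a1 was at 10.7 and 12.7 CPM in the null-labelled clusters. A choice made after the data were seen was progenitors in which Elane took 0.2% or more of non-member UMIs (58 null-labelled and 321 control-labelled cells). Among them the log2 ratio of S100a8 was 1.64 and that of S100a9 1.88. When whole clusters rather than cells were given a stage, both ratios in progenitors turned negative, at -0.21 for S100a8 and -0.62 for S100a9. The null-labelled progenitors were then only the 35 cells of the cluster with S100a8 at 10321 CPM. The cluster with S100a8 at 82407 CPM was no longer among them.

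The balance within the pair was near equal between the libraries in pre-neutrophils and differed in the other stages. S100a9 made up 53.2%, 52.7%, 51.3% and 50.5% of the pair's UMIs from progenitors to mature cells in the null-labelled library. In the control-labelled library its share was 48.9%, 52.6%, 54.0% and 55.1%. In mature cells the counting interval was 50.2% to 50.8% in the null-labelled and 55.0% to 55.2% in the control-labelled library. Single mature cells spread more widely, between 43.7% and 61.7% (10th to 90th percentile) in the null-labelled and 50.1% and 59.6% in the control-labelled library. The median cell had 47.9%, 52.4%, 51.0% and 50.7% from progenitors to mature cells in the null-labelled library and 45.1%, 52.7%, 54.1% and 55.2% in the control-labelled library. The null-labelled decline of the summed share from the first stage was therefore not seen in the median cell, which was lowest in progenitors. The plot of the pair's balance shows these shares beside the spread over cells.

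**Figure D2:**
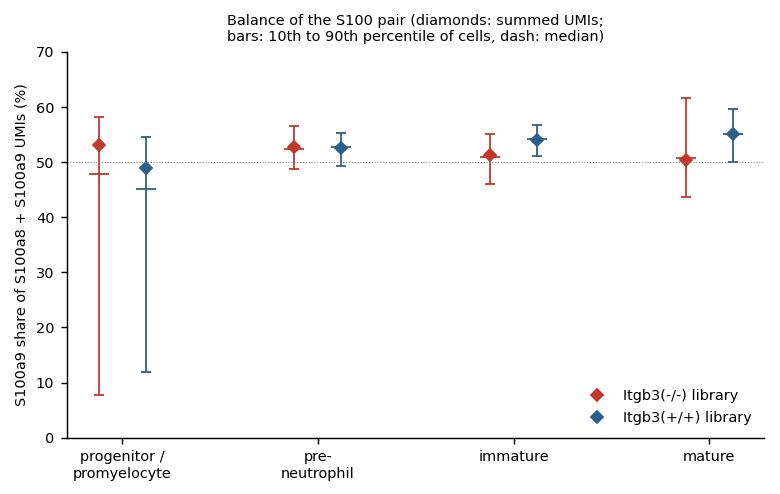
S100a9 as a percentage of S100a8 plus S100a9 UMIs in 4 granulocyte stages, Itgb3(-/-) library in red on the left and Itgb3(+/+) library in blue on the right; diamonds are summed UMIs, dashes the median cell and bars the 10th to 90th percentile of cells with over 20 UMIs of the pair. The diamonds end at 50.5% in null-labelled and 55.1% in control-labelled mature cells, with overlapping spread over cells, and the median cell starts at 47.9% in null-labelled and 45.1% in control-labelled progenitors.

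Retnlg, which encodes resistin-like gamma, a secreted protein of the resistin family, climbed steeply with maturation in both libraries. It had 1 UMI in null-labelled progenitors (0.465 CPM), then 137.6 CPM in pre-neutrophils, 2229 CPM in immature and 9248 CPM in mature cells. In the control-labelled library it had 52.0, 224.7, 9693 and 47597 CPM in the same stages. It was 4.35-fold lower (4.25 to 4.45) in null-labelled immature cells and 5.15-fold lower (4.998 to 5.301) in null-labelled mature cells. Both libraries raised Retnlg between the immature and the mature stage by similar factors, 4.15 in the null-labelled and 4.91 in the control-labelled library. In progenitors it was 112-fold lower (19.97 to 4432), on 1 null-labelled UMI. Cells that should lack the transcript also held it: null-labelled B-lineage cells had 2.66 CPM, against 50.2 CPM in control-labelled ones, and in the same order erythroid cells had 1.15 and 33.5 CPM and T and NK cells 1.33 and 31.7 CPM. The interval of the control-labelled progenitors, 46.9 to 57.5 CPM, overlapped that of B-lineage cells, 45.3 to 55.5 CPM, and lay above those of erythroid cells and of T and NK cells. After the level in B- and T-lineage cells was subtracted, nothing was left of Retnlg in null-labelled progenitors. The log2 value there, -1.57, is a bound set by the floor of 3 UMIs, and Retnlg no longer met the level minimum.

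Mmp9, the gelatinase B gene, whose product is stored in late-forming tertiary granules, was also lower at the end of maturation. No UMI was seen in null-labelled progenitors, and the level was 117.6 CPM in pre-neutrophils, 803.6 CPM in immature and 1565 CPM in mature cells. The control-labelled library had 4.61, 100.2, 1688 and 2996 CPM in the same stages. Mmp9 was 2.10-fold lower (2.02 to 2.19) in null-labelled immature cells and 1.91-fold lower (1.78 to 2.06) in null-labelled mature cells. The immature difference fell just under 2-fold, at log2 ratios of -0.92 and -0.94, with the mean over cells and with thinning to 1000 UMIs. In pre-neutrophils the libraries were within 1.17-fold of each other.

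Wfdc17, a small secreted protein with a whey acidic protein domain also known from activated macrophages and microglia, was higher in the null-labelled library at every stage. It had 33.4, 58.1, 349.4 and 1473 CPM from progenitors to mature cells in the null-labelled library. In the control-labelled library it had 6.65, 2.35, 5.72 and 369.8 CPM, so it was low there before the mature stage. Wfdc17 was 24.7-fold higher (14.9 to 44.0) in null-labelled pre-neutrophils, 61.1-fold higher (43.0 to 89.6) in immature cells and 3.98-fold higher (3.63 to 4.37) in mature cells. With doublets kept, the log2 ratios were 3.09 in pre-neutrophils and 4.19 in immature cells, in place of 4.63 and 5.93. The difference was not limited to granulocytes, since null-labelled monocyte-like cells had 1404 CPM, against 357.0 CPM in control-labelled ones, a ratio of 3.93 (3.71 to 4.17). In progenitors the ratio was 5.03 (3.45 to 7.38), at levels under the minimum used for counting. Of 9 monocyte markers 1 passed the level minimum in mature cells, Ly6c2, at 962.1 CPM in null-labelled and 712.7 CPM in control-labelled cells. The markers summed to 982.2 CPM in null-labelled and 782.1 CPM in control-labelled mature cells, and 5 of them were at 0 in the null-labelled and 0 of them in the control-labelled cells. Mature cells held 498904 UMIs in the null-labelled and 3388361 in the control-labelled library. A low marker therefore reaches 0 more readily in the null-labelled cells, and nothing is read from these zeros.

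The stefins differed between the libraries in where along the lineage they were found. Summed over the 4 genes, null-labelled cells had 260.6, 532.4, 275.7 and 334.7 CPM from progenitors to mature cells. Control-labelled cells had 2.71, 56.1, 128.0 and 1413 CPM. The control-labelled sum was higher at each later stage, and the null-labelled sum had no such order. In null-labelled progenitors 1 cell held 456 of 561 stefin UMIs, and without the cell with most stefin UMIs in each library the sum was 49.4 CPM in null-labelled and 2.04 CPM in control-labelled progenitors.

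Stfa1 had 174.7, 122.1, 43.2 and 14.03 CPM from progenitors to mature cells in the null-labelled library, against 1.36, 46.5, 53.5 and 382.8 CPM in the control-labelled library. It was 2.63-fold higher (2.27 to 3.04) in null-labelled pre-neutrophils and 27.3-fold lower (13.2 to 68.0) in null-labelled mature cells. The pre-neutrophil difference fell under 2-fold, with log2 ratios of 0.24, 0.50 and 0.75 in place of 1.39, when cells were thinned to 1000 UMIs, when the secondary granule threshold was raised to 2 times and when the mean over cells was taken. In mature cells with under 1% secondary granule UMIs the log2 ratio was -1.98 in place of -4.77. All 7 of its UMIs in null-labelled mature cells came from 1 cell, without which the level was 0, against 359.8 CPM in control-labelled cells without their highest cell. In null-labelled progenitors 1 cell held 326 of 376 UMIs, and without the highest cell of each library the levels were 23.5 CPM in null-labelled and 0.680 CPM in control-labelled progenitors. With whole clusters staged, the log2 ratio in progenitors was -1.09. Null-labelled progenitors were then 1 cluster of 35 cells, in which Stfa1 stood at 0.668 CPM, far under the minimum of 50 CPM.

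BC100530, the near copy of Stfa1, had 49.2, 64.8, 10.9 and 0 CPM in the null-labelled library, against 0.271, 5.30, 12.9 and 169.1 CPM in the control-labelled library. It was 12.2-fold higher (8.60 to 17.9) in null-labelled pre-neutrophils. In null-labelled mature cells no UMI was found, where control-labelled cells had 573, which makes it at least 28.1-fold lower against a floor of 3 UMIs per library, and after thinning to 1000 UMIs the bound was -2.19 on the log2 scale in place of -4.81. Single cells weighed heavily on it, with 96 of 106 UMIs in null-labelled progenitors and 38 of 41 in null-labelled immature cells held by 1 cell each.

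Stfa2l1, a further stefin A gene, was found in more cells than the other 3 in mature cells of both libraries. It had 36.7, 310.4, 193.0 and 316.7 CPM in the null-labelled stages and 1.09, 4.12, 57.4 and 806.9 CPM in the control-labelled stages. It was 75.3-fold higher (51.8 to 113.9) in null-labelled pre-neutrophils, 3.36-fold higher (2.94 to 3.85) in immature cells and 2.55-fold lower (2.17 to 3.01) in mature cells. The immature log2 ratio of 1.75 moved to 1.07 and 2.71 with the secondary granule threshold at 0.5 and 2 times. Stfa2, its near copy, had 0, 35.1, 28.6 and 4.01 CPM in the null-labelled and 0, 0.147, 4.29 and 54.6 CPM in the control-labelled stages. On 2 UMIs in null-labelled mature cells, it was 13.6-fold lower (3.72 to 113.3). After thinning to 1000 UMIs the log2 value was -0.19 in place of -3.77. At that depth 0 of 87 null-labelled mature cells held a Stfa2 UMI. The value is therefore a bound set by the floor of 3 UMIs and does not show equal levels.

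A minority of cells carried most stefin transcripts. Cells with 10 or more stefin UMIs were 5 of 61 progenitors (8.20%), 37 of 193 pre-neutrophils (19.2%), 25 of 350 immature cells (7.14%) and 4 of 90 mature cells (4.44%) in the null-labelled library. They were 0 of 372, 4 of 505 (0.792%), 24 of 931 (2.58%) and 181 of 1267 (14.3%) in the control-labelled library. Cells were not thinned for these counts, and null-labelled cells were deeper at every stage. Median depth from progenitors to immature cells was 33656, 19118 and 9926 UMIs in the null-labelled library. In the control-labelled library it was 19376, 12726 and 5772 UMIs. The part of depth in these shares was not tested. The exact 95% interval in mature cells was 1.22% to 10.99% in the null-labelled and 12.4% to 16.3% in the control-labelled library, although null-labelled cells were the deeper ones. In null-labelled pre-neutrophils those 37 cells held 91.4% of stefin UMIs, and in control-labelled mature cells the 181 cells held 74.2%. All 4 stefins were found together in 5 null-labelled pre-neutrophils, 2 null-labelled immature cells and 1 control-labelled mature cell. Of 18 null-labelled pre-neutrophils with Stfa2, 17 also had Stfa2l1, and 9 of 18 with BC100530 also had Stfa1. The same overlaps were 0 of 1 and 3 of 14 in control-labelled pre-neutrophils, and 17 of 39 and 14 of 68 in control-labelled mature cells. The overlaps were counted without thinning. Median depth was 19118 UMIs in null-labelled pre-neutrophils and 2505 in control-labelled mature cells, so these overlaps are not at like stage or depth.

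A gene was compared where it reached 50 CPM in 1 of the libraries and 30 UMIs in all, and it was counted as higher or lower from 2-fold. In mature cells all 9 passed the minimum, 5 were lower and 1, Wfdc17, was higher in the null-labelled library. The 5 were Retnlg and the 4 stefins. Of 2531 genes compared there, 13.8% were lower and 24.0% higher. In immature cells 7 passed, 2 were lower (Retnlg and Mmp9) and 2 higher (Wfdc17 and Stfa2l1), where 14.2% of 1987 genes were lower and 15.1% higher. In pre-neutrophils 8 passed, 0 were lower and 4 higher (Wfdc17, Stfa1, Stfa2l1 and BC100530), where 11.6% of 2129 genes were lower and 10.5% higher. In progenitors 4 passed, 1 was lower (Retnlg, on 1 null-labelled UMI) and 3 higher (S100a8, S100a9 and Stfa1), where 9.01% of 2841 genes were lower and 7.71% higher. The median log2 ratio of the members that passed was 1.89, 0.81, -0.26 and -1.35 from progenitors to mature cells, with BC100530 at its bound in the last, and that of all genes compared was -0.11, -0.14, -0.01 and 0.19. The members were chosen with this contrast known, so nothing is read from these counts against the background.

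**Figure D3:**
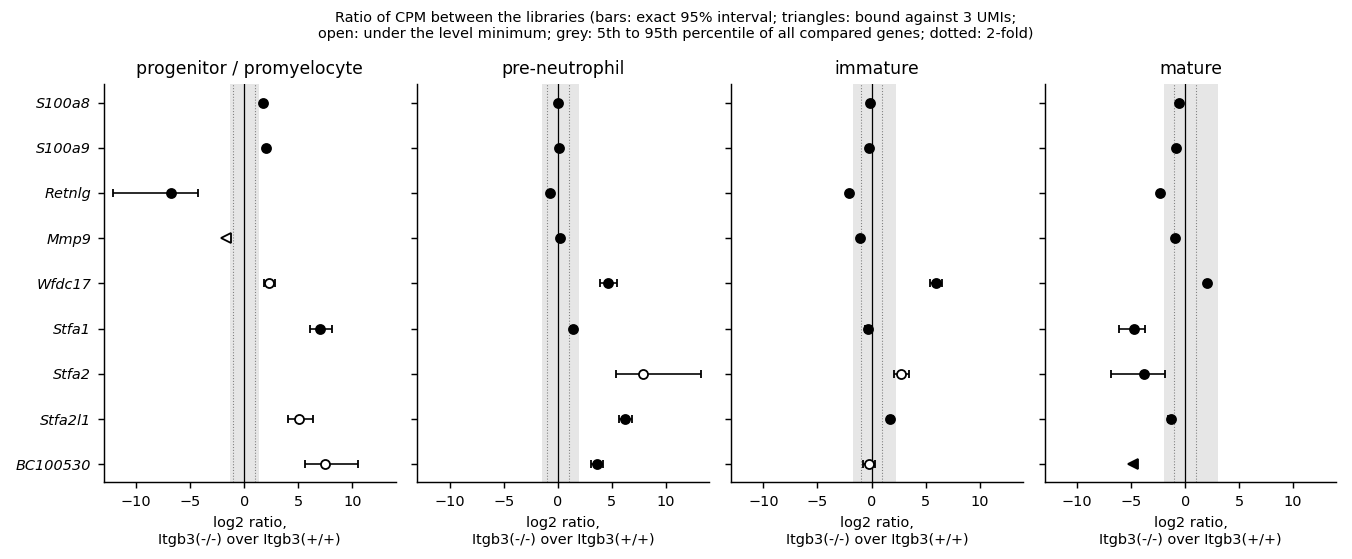
Log2 ratio of CPM, Itgb3(-/-) library over Itgb3(+/+) library, for each member in 4 granulocyte stages, with exact 95% intervals; triangles are bounds against 3 UMIs, open symbols lie under the level minimum, and the grey band runs from the 5th to the 95th percentile of all genes compared. Stfa1, Stfa2, Stfa2l1 and BC100530 lie right of 0 in pre-neutrophils and left of 0 in mature cells, and Wfdc17 lies right of 0 in all 4 stages.

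Scaling moved the background of the mature stage. TMM factors, which assume that most genes do not differ, shifted the median of all genes there by -0.50 on the log2 scale and gave 25.1% lower and 15.3% higher, and dividing by totals without the 9 members gave 22.9% lower and 15.4% higher. Under both, S100a9 and Mmp9 joined the members 2-fold or more lower, which made 7, and Wfdc17 stayed the 1 member that was higher. TMM also moved the share of higher calls in progenitors from 46.1% of calls to 57.8% and in pre-neutrophils from 47.4% to 60.1%, with median shifts of 0.14 and 0.16. In immature cells the totals without the members shifted the median by -0.13.

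To compare cells at a like point of maturation, immature and mature cells were put in 8 bins of the Ngp, Camp and Ltf share of non-member UMIs. In the bin with 20% or more (67 null-labelled and 221 control-labelled cells) S100a8 stood at 178372 CPM in null-labelled and 177039 CPM in control-labelled cells, and S100a9 at 193676 and 206856 CPM. In the bin under 1% (21 null-labelled and 971 control-labelled cells) S100a8 stood at 57311 CPM in null-labelled and 135474 CPM in control-labelled cells, 2.36-fold lower, and S100a9 was 2.75-fold lower. The ratio of S100a8 fell in every step between these bins, so the pair was alike where secondary granule transcripts were high and apart where they were low.

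Retnlg was near equal in the first of these bins, with 546.9 CPM in null-labelled and 623.3 CPM in control-labelled cells, and between 3.66-fold and 7.82-fold lower in the null-labelled library in the other 7. Mmp9 was lower in null-labelled cells in all 8 bins, by 1.75-fold to 3.32-fold. Wfdc17 was higher in all 8, from 4.67-fold (4.01 to 5.41) in the bin under 1% to 331-fold on 1 control-labelled UMI (59.0 to 13104) in the bin from 10% to 15%. Stfa2l1 crossed over, from 152.5 CPM in null-labelled and 1.21 CPM in control-labelled cells at 20% or more to 224.9 CPM in null-labelled and 982.3 CPM in control-labelled cells under 1%. BC100530 had no UMI in null-labelled cells in the 6 bins under 15%. Thin bins limit the last step, since the lowest one holds 21 null-labelled cells, and Cxcr2 there was at 307.7 CPM in null-labelled and 1478 CPM in control-labelled cells, so a like granule share did not bring a like Cxcr2 level.

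**Figure D4:**
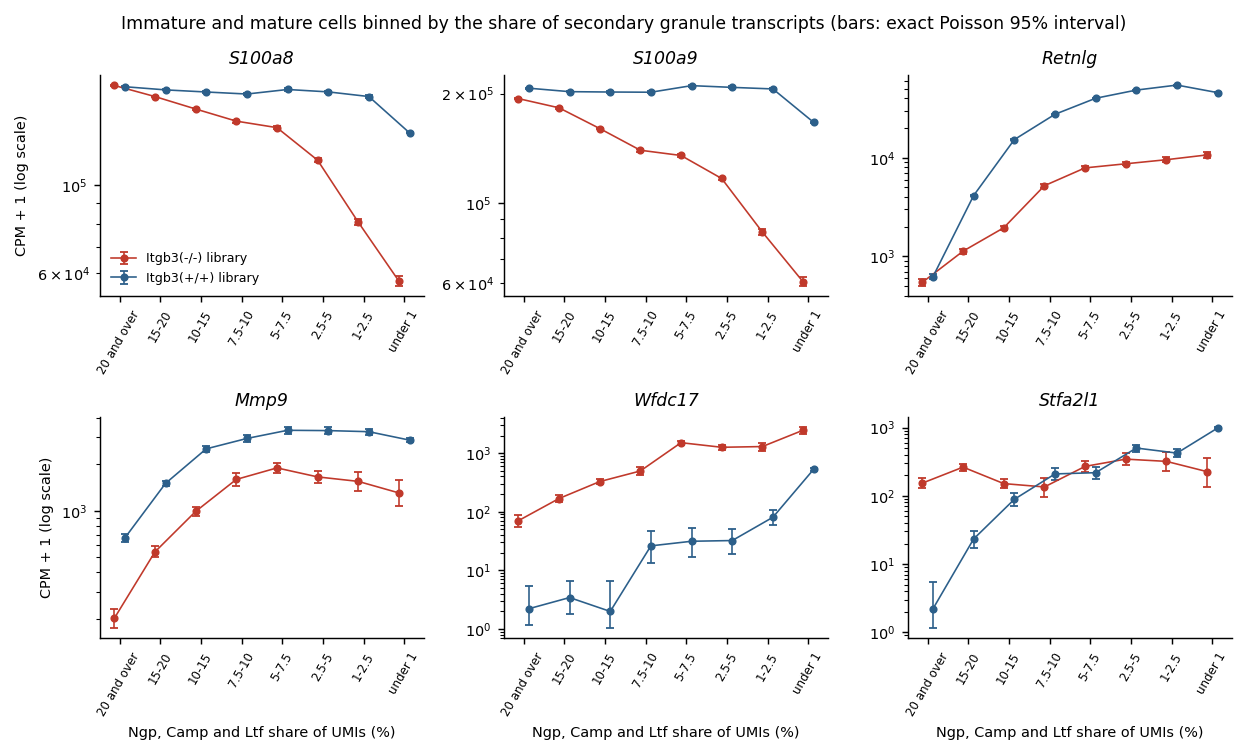
Levels of 6 members, as CPM + 1 on a log axis whose range differs between panels, in binned immature and mature cells. Bins follow the Ngp, Camp and Ltf share of non-member UMIs, from the highest share on the left to under 1% on the right. The Itgb3(-/-) library is in red and the Itgb3(+/+) library in blue, with exact Poisson 95% intervals. S100a8 starts at 178372 CPM in null-labelled and 177039 CPM in control-labelled cells and ends at 57311 and 135474 CPM in the same libraries.

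Shares of cells with a UMI were compared at equal depth. Each cell was thinned to 1000 UMIs, which left out 3 null-labelled and 44 control-labelled mature cells. A Retnlg UMI was then found in 89.7% of null-labelled mature cells (81.3% to 95.2%) and 97.7% of control-labelled ones (96.7% to 98.5%). Mmp9 was found in 69.0% of null-labelled (58.1% to 78.5%) and 93.2% of control-labelled mature cells (91.7% to 94.6%). Wfdc17 was found in 34.5% of null-labelled (24.6% to 45.4%) and 16.0% of control-labelled mature cells (14.01% to 18.2%). Stfa1 was found in 1.15% of null-labelled (0.0291% to 6.238%) and 7.69% of control-labelled mature cells (6.255% to 9.32%), with intervals that nearly touched. For Stfa2l1 the shares were 18.4% (10.9% to 28.1%) in null-labelled and 25.2% (22.8% to 27.7%) in control-labelled mature cells, with overlapping intervals. Without thinning they were 32.2% and 30.4% in the same order. Stfa2 was found in 0 of 87 null-labelled and 2.04% of control-labelled mature cells, again with overlapping intervals. BC100530 was found in 0 of 87 null-labelled mature cells, which allows a share of cells with a UMI at this depth of up to 3.45% by the floor of 3 counts and 4.15% by the exact interval, and in 4.33% of control-labelled ones (3.26% to 5.63%). The exact intervals of BC100530 overlapped, so a difference in its share was not detectable at this depth. Without thinning, the shares for Retnlg were 92.2% in null-labelled and 97.6% in control-labelled mature cells.

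B-lineage cells gave the level of free RNA after the same thinning. S100a8 was found in 12.6% of null-labelled and 32.1% of control-labelled B-lineage cells, S100a9 in 15.4% and 40.6%, and Retnlg in 0.327% and 4.41%, in the same order. Median depth of these cells before thinning was 5202 UMIs for null-labelled and 2307 UMIs for control-labelled ones. The other members were in under 1% of B-lineage cells in both libraries. Subtracting the level in B- and T-lineage cells left the counts of members in mature cells at 5 lower and 1 higher.

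**Figure D5:**
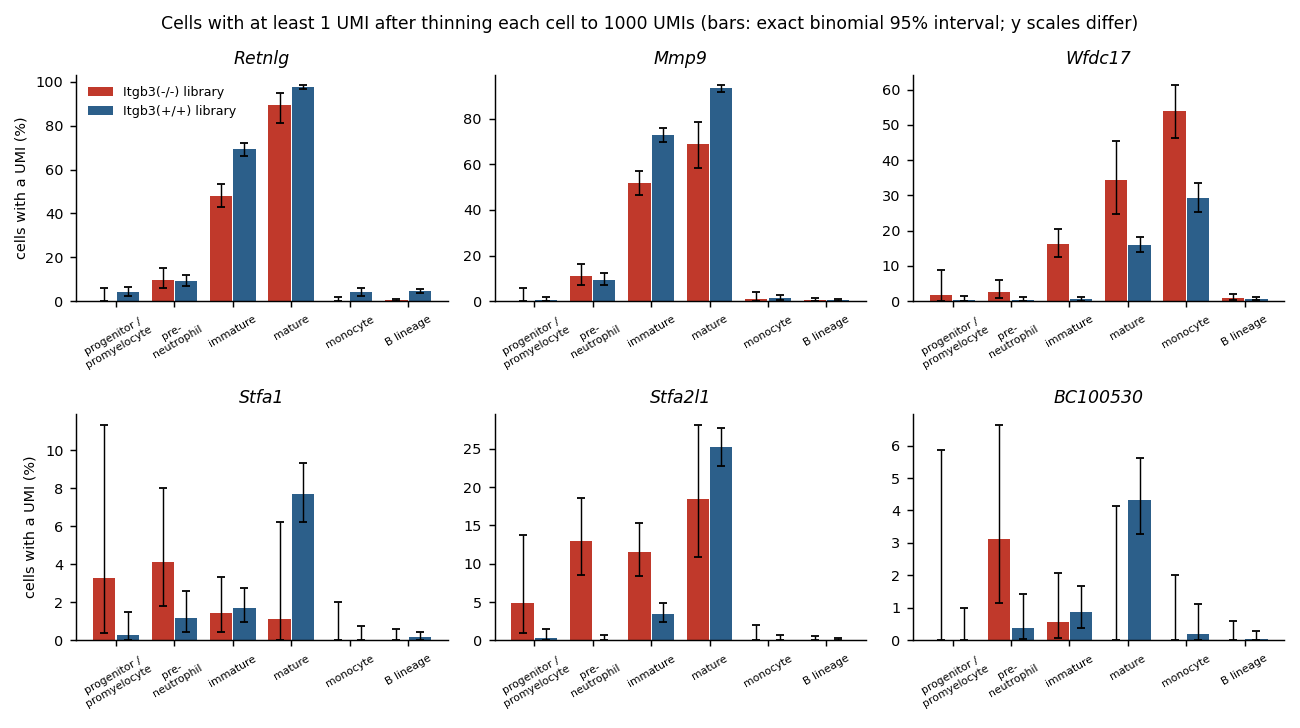
Percentage of cells with at least 1 UMI of 6 members after thinning each cell to 1000 UMIs, in 4 granulocyte stages, monocyte-like and B-lineage cells, Itgb3(-/-) library in red on the left and Itgb3(+/+) library in blue on the right, with exact binomial 95% intervals and y axes that differ between panels. Mmp9 reaches 69.0% in null-labelled and 93.2% in control-labelled mature cells, and Wfdc17 34.5% and 16.0% in the same libraries.

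The relatives and partners of the members were read in the same mature cells. Of 17 other S100 and S100 receptor genes 5 passed the minimum, 2 were lower and 1 higher, with a median log2 ratio of -0.50 against 0.19 for all genes. S100a6 had 5472 CPM in null-labelled and 12385 CPM in control-labelled cells, S100a11 had 2736 and 6322 CPM, and Bsg, which encodes basigin, had 166.4 and 41.9 CPM, in the same order. Of the 9 other stefin and cystatin genes found, 4 passed, 2 were lower and 1 higher (median -1.36). Gm5483, a stefin gene of the same locus, had 162.4 CPM in null-labelled and 1156 CPM in control-labelled mature cells, and 111.1 and 1.91 CPM in pre-neutrophils, so it was on opposite sides in these stages, as the 4 member stefins were. Stfa3 had 10.0 CPM in null-labelled and 108.9 CPM in control-labelled mature cells. Among 9 cysteine cathepsins, the proteases that stefins inhibit, 5 passed, 0 were lower and 3 higher (median 1.59). Ctss had 326.7 CPM in null-labelled and 17.4 CPM in control-labelled mature cells, and Ctsb 256.6 and 50.5 CPM.

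In the resistin list of 4 genes only Cap1, which encodes a resistin-binding protein, passed, at 366.8 CPM in null-labelled and 352.4 CPM in control-labelled mature cells (log2 ratio 0.06). Of 11 gelatinase, collagenase and inhibitor genes 4 passed, 2 were lower and 1 higher (median -0.40). Mmp8, the neutrophil collagenase, had 1652 CPM in null-labelled and 3311 CPM in control-labelled cells. Lcn2, whose product binds gelatinase B, had 36789 CPM in null-labelled and 6700 CPM in control-labelled cells. Of 7 other whey acidic protein domain genes found, 2 passed and 1 was lower (median -0.77), and Slpi, an inhibitor of neutrophil elastase, had 948.1 CPM in null-labelled and 3037 CPM in control-labelled cells.

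Other late neutrophil genes did not move as a block. All 20 passed in mature cells, 4 were lower and 3 higher (median 0.35). In pre-neutrophils 13 of them passed, 2 were lower and 10 higher (median 1.84 against -0.14 for all genes), and Il1r2 there had 693.8 CPM in null-labelled and 23.4 CPM in control-labelled cells. Of 15 secondary granule genes all passed in mature cells, with 5 lower and 5 higher (median -0.22), and Lyz2 had 430.9 CPM in null-labelled and 8376 CPM in control-labelled cells while Chil3 had 6153 and 164.7 CPM. None of the 6 primary granule genes passed in mature cells, and in pre-neutrophils 5 of 6 were lower (median -1.57). Of 12 granulocyte transcription factors 7 passed, 1 was lower and 2 higher (median 0.68). Cebpb had 2071 CPM in null-labelled and 687.4 CPM in control-labelled mature cells, and Cebpd 130.3 and 582.0 CPM. All 12 interferon response genes passed in mature cells and were higher there (median 4.20), as were all that passed in progenitors (10), pre-neutrophils (10) and immature cells (11). An example in mature cells is Ifitm3 with 7811 CPM in null-labelled and 1484 CPM in control-labelled cells.

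Over the clusters of each library, the genes most like each member were sought by Pearson's r of log2(CPM + 10), ranked in the control-labelled library. The points are 45 control-labelled and 37 null-labelled clusters, which share a library and its depth. S100a8 was most like Lcn2, with r of 0.93 in the null-labelled and 0.98 in the control-labelled library, and S100a9 most like Wfdc21, with 0.97 and 0.98 in the same order. Retnlg was most like Fpr1 (0.90 in the null-labelled and 0.97 in the control-labelled library) and Mmp9 most like Scrg1 (0.99 and 0.98). Because the partners were ranked in the control-labelled library, r is high there by choice, and a lower r in the null-labelled library is no result. Stefin UMIs were also few in some null-labelled cells, BC100530 having 41 in immature and 0 in mature ones. Stfa2l1 and Il1f9 had r of 0.56 in the null-labelled and 0.99 in the control-labelled library, and BC100530 and Arg2 -0.09 and 0.94. Stfa1 and Il1r2 had 0.60 and 0.94, Stfa2 and Prok2 0.29 and 0.91, and Wfdc17 and Il13ra1 0.85 and 0.90, again in the same order. Among the members, S100a8 and S100a9 had 0.99 in the null-labelled and 1.00 in the control-labelled library, and Retnlg and Mmp9 0.99 and 0.96. Retnlg and BC100530 had 0.13 in the null-labelled and 0.90 in the control-labelled library.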

How the data were processed

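The authors deposited whole-number UMI counts per gene and cell barcode for each library, without normalization. Cell Ranger 3.0, Seurat and the build mm10 are named per the submitters' processing notes, and the software version is 3.1.0 per the file headers. No label or header describes other steps before deposit.

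Cells were kept from 200 genes upward and up to 10% mitochondrial UMIs. Doublets were scored with Scrublet in each library, and 0.8% of cells per 1000 were removed from the top, 71 null-labelled and 690 control-labelled cells; its automatic threshold would have marked 4 and 368. Each library was clustered by itself (Leiden, resolution 3, 15 neighbours, 30 components of 2000 variable genes, scanpy 1.11.5, Python 3.11.15) without the 9 members, and clusters were named from marker lists. Clusters with 10% or more hemoglobin UMIs were left out of the granulocytes, 0 null-labelled and 106 control-labelled cells (1.23% of cells kept). Progenitors had under 5% of UMIs in Ngp, Camp and Ltf and 0.2% or more in 5 primary granule genes. Pre-neutrophils had 5% or more in Ngp, Camp and Ltf and either 0.5% in 7 cell cycle genes or 0.2% in primary granule genes. Immature cells had 5% or more, and mature cells under 5%, without cycling or primary transcripts. No stage was given to 3 null-labelled and 72 control-labelled granulocytes. Shares of hemoglobin, granule, Elane and cell cycle transcripts, here and in the bins, are of UMIs of genes other than the 9 members.

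UMIs were summed per library and stage and given as CPM, with exact Poisson 95% intervals. Intervals of ratios are exact and rest on how UMIs divide between the libraries, and shares of cells a Clopper-Pearson interval (scipy 1.17.1). Where 1 library had 0 UMIs, or nothing was left after thinning or after subtraction of free RNA, the floor was 3 UMIs. No test was possible with 1 library per genotype. Summing and calling were tested on simulated data. TMM factors came from edgeR 4.0.16. Alternatives covered scaling, filters, stage thresholds, free RNA and single cells.

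Members and gene lists were chosen with earlier results of these data known. All 9 members are named. From each list the named genes come from the 2 highest in control-labelled mature cells and the 2 with the largest ratio there, and for each member the 3 genes most alike over control-labelled clusters were taken. Cxcr2, F13a1 and Camp were named after their values were seen. Sequences and promoter windows are from RefSeq.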

Additional observations from a re-analysis of the deposited data

Results flagged for a closer look

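The stefin genes Stfa1, Stfa2l1 and BC100530 stood on opposite sides of equality in different stages, and the difference between stages was not tested. Stfa1 was 128.7-fold higher in null-labelled than in control-labelled progenitors and 2.63-fold higher in pre-neutrophils, but 27.3-fold lower in mature cells. Stfa2l1 was 75.3-fold higher in null-labelled pre-neutrophils and 3.36-fold higher in immature cells, but 2.55-fold lower in mature cells. BC100530 was 12.2-fold higher in null-labelled pre-neutrophils and had no UMI in null-labelled mature cells. The progenitor value of Stfa1 rests on 1 cell with 326 of 376 UMIs.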

How the results depend on the processing

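No paired analysis was possible because each genotype is 1 library. In progenitors 1 member was lower and 3 were higher. None was lower (0) with the secondary granule threshold at 0.5 times, whole clusters staged, free RNA subtracted, Elane at 0.2% or more, hemoglobin under 1%, or each member's highest cell left out; the last 3 were chosen after seeing the data. Without the level minimum 2 were lower and 6 higher. With whole clusters 35 null-labelled progenitors remained, all of 1 cluster, and 0 members were higher. The log2 ratios then reversed to -0.21 for S100a8, -0.62 for S100a9 and -1.09 for Stfa1. For Stfa1 this rests on 0.668 CPM in the null-labelled cells, far under the level minimum. In pre-neutrophils 0 were lower and 4 higher; 1 was lower with doublets kept or whole clusters staged, 2 were higher with the threshold at 2 times and 1 was higher with cells thinned to 1000 UMIs. In immature cells 2 were lower, and 1 after thinning. The cause of these moves was not tested. In mature cells 4 to 7 members were lower and 1 was higher under the alternatives that gave a value; whole-cluster staging left no null-labelled mature cell. Of 18 member ratios at 2-fold or more, 14 kept their sign and 12 stayed past 2-fold under every alternative that gave a value, a floor standing in where 1 library had no UMI. Counts of 2 or fewer stefin UMIs and 90 null-labelled mature cells limit the depth.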
